A study of Bos taurus with 15 samples.

Results

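The levels of 6 collagen matrix genes were followed in bovine fetal fibroblasts (BFFs) after ectopic expression of a homeobox gene: COL1A1 (ENSBTAG00000013103), COL1A2 (ENSBTAG00000013472), COL3A1 (ENSBTAG00000021466), COL5A2 (ENSBTAG00000027020.5), CTHRC1 (ENSBTAG00000032591.3) and PXDN (ENSBTAG00000050986.1). They are 6 of the 21665 genes in the deposited table. The genes were chosen by their higher levels with wild-type (WT) ARGFX than with the control plasmid, from the study's list of genes upregulated in that comparison, so their increase with WT ARGFX is given as a description, without a test. COL15A1 and COL6A3, also on that list, had been set apart because they fell with LEUTX, so the directions of the 6 genes with LEUTX are in part a product of that choice. All 6 genes passed the filter on low counts, which left 14264 genes for testing.

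Fibrillar collagens are secreted as triple helices, trimmed outside the cell and packed into the cross-linked fibrils that give skin its tensile strength. Fibroblasts make most of this matrix. Type I collagen is built from the chains encoded by COL1A1 and COL1A2, type III collagen from the COL3A1 chain alone, and type V collagen, which starts fibrils and limits their diameter, from COL5A1 and COL5A2. CTHRC1 is a secreted glycoprotein with a short collagen-like repeat, made by activated fibroblasts. PXDN (peroxidasin) is a secreted peroxidase that cross-links the type IV collagen of basement membranes, so it is a matrix gene but not a partner of the fibrillar collagens in particular.

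RNA was sequenced from primary BFFs, isolated from the skin of 1 Bos taurus fetus of 6 months and used at passage 4. Cells were electroporated with the empty plasmid pSF-CMV-Puro as control (4 samples), or with that plasmid carrying FLAG-tagged bovine WT ARGFX (4 samples), mutant ARGFX (3 samples) or LEUTX (4 samples) under the CMV promoter. ARGFX and LEUTX are PRD class homeobox genes of the ETCHbox group, active in early embryos, and the mutant is a frameshift allele that ends the protein before the homeodomain. All groups, controls included, were treated with puromycin at 4 µg/ml, and RNA was extracted 72 h after transfection. Because the replicates came from the cells of 1 fetus, p-values measure the spread between these cultures and not between animals.

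Total expected counts (estimated reads per gene, summed) ranged from 25947911 to 28163565 per control sample, 31359218 to 35178524 with WT ARGFX, 28519622 to 41554242 with mutant ARGFX and 26917853 to 35454192 with LEUTX. The transfected genes matched the labels, but counts per gene cannot tell WT from mutant ARGFX. ARGFX lay between 3039 and 4506 CPM (counts scaled to a library size normalized by the trimmed mean of M values, TMM) with WT ARGFX and between 3408 and 6606 CPM with mutant ARGFX, against at most 1 count in any control sample. LEUTX lay between 1314 and 1781 CPM in the LEUTX samples. Of 10 fibroblast markers, the 2 that could be located by symbol were COL1A1 and COL1A2 themselves, which ranked 2 and 1 by mean CPM among the genes tested. Defining markers of keratinocytes, endothelium, fat, leukocytes and melanocytes could not be located by symbol and were not analysed here.

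The 6 genes split by construct. With mutant ARGFX, every sample lay above every control sample for all 6, where 11.6% of all genes were higher without overlap. These control samples were also used in choosing the genes. With LEUTX, COL5A2 and PXDN rose, where 12.8% of all genes were called up, while COL3A1 fell, where 14.0% were called down. COL1A1, COL1A2 and CTHRC1 were higher on average with LEUTX without passing the call rule. A gene was called at an adjusted p-value under 0.05 (edgeR's quasi-likelihood test, Benjamini-Hochberg adjustment over all genes tested) and a fold change over 1.5. Together the 6 genes held 2.89% ± 0.301 of all expected counts in the control samples (SD, n = 4), 4.96% ± 0.501 with WT ARGFX (n = 4), 3.94% ± 0.212 with mutant ARGFX (n = 3) and 3.48% ± 0.583 with LEUTX (n = 4). In bulk RNA, fewer cells expressing a gene and less RNA per cell cannot be told apart.

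**Figure D1:**
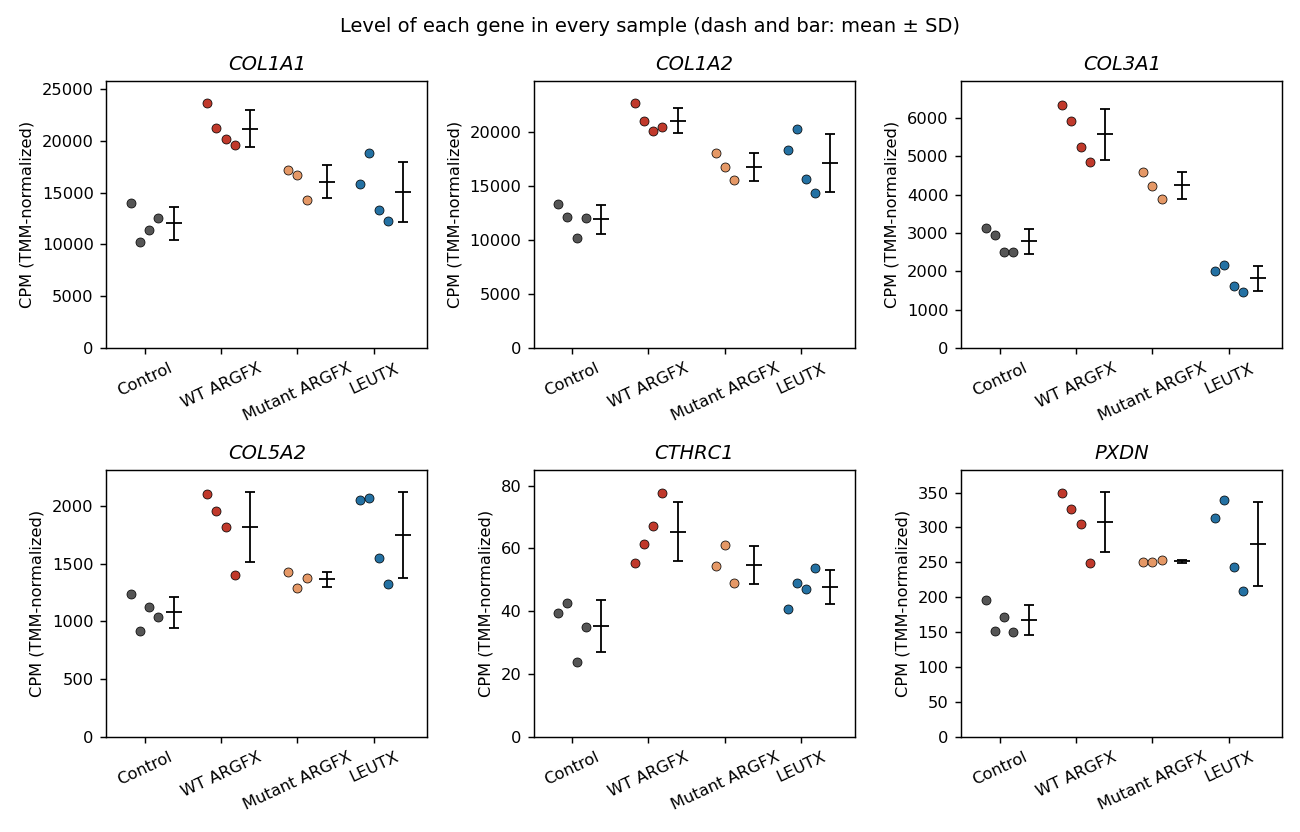
Level of each gene in CPM (linear axes from 0) in every sample; each point is 1 sample and the dash with its bar is the mean ± SD of the group. COL3A1 with LEUTX lies below all 4 control samples (at most 2157 against at least 2504 CPM), as did 21.5% of all genes. The mutant ARGFX samples lie above the control samples in all 6 panels, as did 11.6% of all genes.

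COL3A1, the chain of type III collagen, gave the clearest separation of the constructs. It stood at 3131, 2955, 2504 and 2510 CPM in control samples 1 to 4 and at 6321, 5911, 5234 and 4841 CPM in the WT ARGFX samples. The mutant ARGFX samples held 4590, 4232 and 3889 CPM and the LEUTX samples 2008, 2157, 1622 and 1465 CPM. No value was shared between any 2 groups: all LEUTX samples were lowest, then control, then mutant ARGFX, with WT ARGFX highest. The place of WT ARGFX above control follows from the choice of the genes. The share of all genes that separate every group in this way was not computed. With LEUTX, COL3A1 fell by 0.61 on the log2 scale against control (SE 0.14, edgeR adjusted p = 0.00151, lower in 4 of 4 samples). Leaving out control replicate 1 or 2, or LEUTX replicate 3 or 4, gave -0.55, -0.58, -0.55 and -0.52, which is under the fold threshold with adjusted p-values from 0.00439 to 0.00720. Between LEUTX and mutant ARGFX, COL3A1 differed by -1.22 (SE 0.15, edgeR adjusted p = 5.13e-06).

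COL5A2, a chain of type V collagen, moved the other way with LEUTX. Control samples 1 to 4 held 1235, 921, 1128 and 1037 CPM, and the LEUTX samples held 2054, 2072, 1549 and 1320 CPM. The lowest LEUTX sample was above the highest control sample, and COL5A2 rose by 0.70 (SE 0.15, edgeR adjusted p = 0.00135). The WT ARGFX samples held 2103, 1961, 1819 and 1401 CPM and overlapped the LEUTX samples. The mutant ARGFX samples, at 1427, 1294 and 1375 CPM, were all above control, by 0.34 on the log2 scale (SE 0.16), which did not pass the test (edgeR adjusted p = 0.210).

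COL5A2 and COL3A1 are immediate neighbours in the RefSeq annotation of ARS-UCD2.0, with 0 genes listed between them, whereas the 6 genes together lie on 5 chromosomes. The count ratio of COL5A2 to COL3A1 within a sample, which needs no normalization between samples, was 0.392 ± 0.0587 in control samples (SD, n = 4), 0.325 ± 0.0250 with WT ARGFX (n = 4) and 0.323 ± 0.0263 with mutant ARGFX (n = 3). With LEUTX it was 0.960 ± 0.0498 (n = 4), with a lowest sample of 0.901 against a highest control sample of 0.450. This ratio was formed after the values were seen and was not tested, and it compares counts, not molecules, because the transcripts differ in length.

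**Figure D2:**
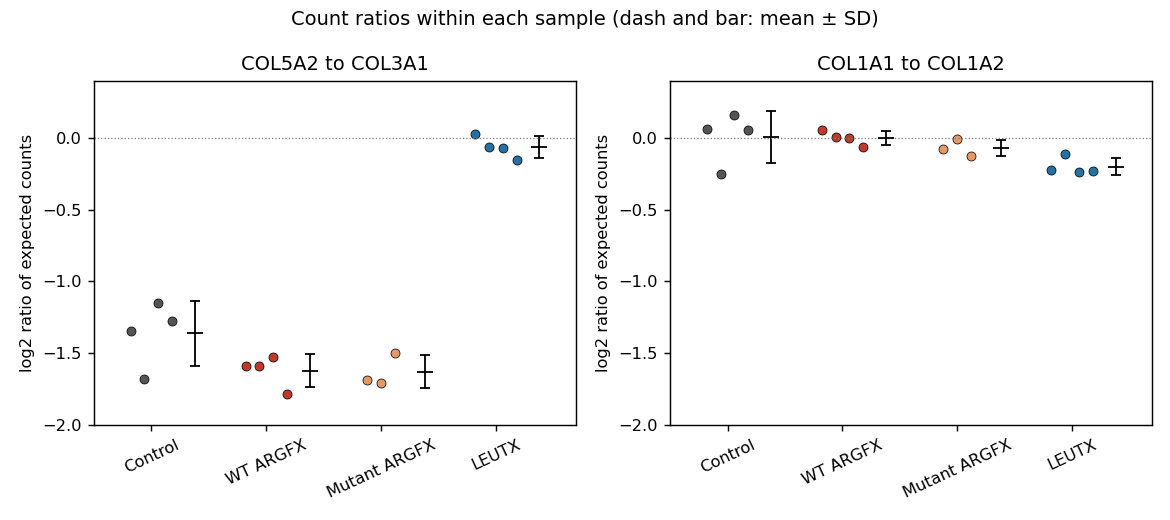
Log2 ratio of expected counts within each sample for COL5A2 to COL3A1 (left) and COL1A1 to COL1A2 (right); points are samples, dashes and bars are mean ± SD, and the dotted line marks equal counts. On the left the 4 LEUTX samples stand near 0 and all others below -1. On the right the 4 groups lie closer together, with all LEUTX samples below all WT ARGFX samples.

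PXDN followed COL5A2. It stood at 196, 152, 172 and 150 CPM in control samples and at 314, 340, 243 and 209 CPM with LEUTX, without overlap. It rose by 0.72 with LEUTX (SE 0.14, edgeR adjusted p = 0.000515, higher in 4 of 4 samples). The WT ARGFX samples held 349, 327, 305 and 248 CPM, and the mutant ARGFX samples 250, 250 and 253 CPM. The mutant samples were thus above every control sample and inside the range of both other constructs. The difference of mutant ARGFX from control was 0.59 (SE 0.15, edgeR adjusted p = 0.0227), a fold change that lay at the threshold of 1.5 itself.

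The chains of type I collagen were nearly equal in counts, and both were highest with WT ARGFX, whose samples were used to choose the genes. COL1A1 held 13992, 10206, 11408 and 12520 CPM in control samples, 23629, 21207, 20127 and 19608 CPM with WT ARGFX and 17196, 16693 and 14294 CPM with mutant ARGFX. Its LEUTX samples, at 15774, 18794, 13323 and 12283 CPM, overlapped the control samples. The difference of LEUTX from control was 0.32 for COL1A1 (SE 0.15, 95% interval 0.02 to 0.62) and did not pass (edgeR adjusted p = 0.0930).

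COL1A2 held 13385, 12143, 10169 and 12053 CPM in control samples and 18370, 20291, 15649 and 14368 CPM with LEUTX, without overlap. Its difference with LEUTX was 0.52 (SE 0.14, edgeR adjusted p = 0.00469), a fold change of 1.44 that was under the threshold. Without LEUTX replicate 4 it was 0.61 and called. The WT ARGFX samples, at 22736, 21074, 20105 and 20470 CPM, were above all mutant ARGFX samples, at 18082, 16759 and 15540 CPM.

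The count ratio of COL1A1 to COL1A2 was 1.01 ± 0.12 in control samples (SD, n = 4), 1.00 ± 0.0334 with WT ARGFX (n = 4), 0.956 ± 0.0383 with mutant ARGFX (n = 3) and 0.873 ± 0.0358 with LEUTX (n = 4). The log2 ratio differed between LEUTX and control by -0.21 (exact two-sided permutation test, p = 0.143, adjusted over 3 comparisons 0.214). It differed by -0.07 between mutant ARGFX and control (exact permutation p = 0.543, adjusted 0.543) and by -0.13 between LEUTX and mutant ARGFX (exact permutation p = 0.0857, adjusted 0.214). The smallest p these designs allow is 0.0286. No difference in this ratio was therefore shown in these 3 comparisons, and the control samples spread most, from 0.840 to 1.12. The ratio lay between 0.958 and 1.04 with WT ARGFX and between 0.851 and 0.926 with LEUTX, without overlap. That pair of groups was not tested.

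CTHRC1 was the least abundant of the 6 genes. Control samples held 39.5, 42.7, 23.8 and 34.9 CPM, WT ARGFX samples 55.2, 61.4, 67.2 and 77.6 CPM, mutant ARGFX samples 54.2, 60.9 and 48.8 CPM and LEUTX samples 40.6, 48.9, 47.1 and 53.8 CPM. LEUTX replicate 1 lay inside the control range and the other LEUTX samples above it. CTHRC1 rose with mutant ARGFX by 0.63 (SE 0.16, edgeR adjusted p = 0.0223). With LEUTX the difference was 0.43 (SE 0.15, edgeR adjusted p = 0.0284), a fold change of 1.35 that was under the threshold.

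**Figure D3:**
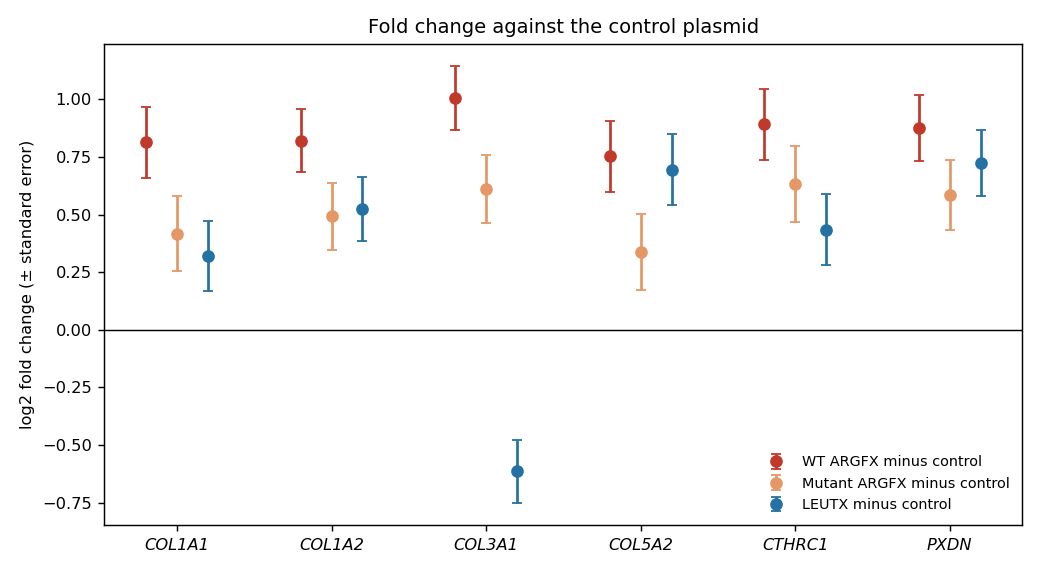
Log2 fold change of each gene against the control plasmid, with 1 standard error, for WT ARGFX (which chose the genes), mutant ARGFX and LEUTX. The 3 comparisons share their control samples; COL3A1 with LEUTX, at -0.61, is the point below 0.

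In WT ARGFX against control, the comparison behind the choice, the log2 fold changes were 1.01 for COL3A1, 0.89 for CTHRC1, 0.88 for PXDN, 0.82 for COL1A2, 0.81 for COL1A1 and 0.75 for COL5A2, and the groups did not overlap for any of the 6. All 6 met the call rule upward. Both counts follow from the choice of the genes. Over all genes tested, 6.15% were called up and 12.9% were higher without overlap, shares that are no measure of the 6.

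In LEUTX against control, 2 of the 6 genes were called up, where 12.8% of all genes were called up, and 1 was called down, where 14.0% were called down. The groups did not overlap upward for 3 genes (20.5% of all genes) and downward for 1 (21.5%). The median log2 fold change was 0.48 for the 6 genes and -0.03 for all genes. The control samples here were also used in choosing the genes.

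In mutant ARGFX against control, 3 of the 6 genes, COL3A1, CTHRC1 and PXDN, were called up, where 1.26% of all genes were called up. All 6 were higher without overlap, where 11.6% of all genes were. The median was 0.54 for the 6 genes and 0.01 for all genes. COL3A1 differed by 0.61 (SE 0.15, edgeR adjusted p = 0.0151), while COL1A1, at 0.42 (SE 0.16, adjusted p = 0.118), and COL1A2, at 0.49 (SE 0.15, adjusted p = 0.0431), were not called. Fewer than 3 were called under 18 of 23 alternatives, PXDN losing its call under 17 of them, among them DESeq2 (0.58), its size factors, library totals alone and no filter on low counts. With 1 sample left out, 0 of the 6 were called without control replicate 4 or mutant replicate 1, and 1 was called without control replicate 3 (PXDN) or mutant replicate 2 (COL3A1). This comparison shares its control samples with the choice of the genes.

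Between WT and mutant ARGFX, all 6 genes were higher on average with WT ARGFX, by 0.26 to 0.42, and 0 were called (edgeR adjusted p from 0.272 to 0.652), where 0.386% of all genes were called up. At an unadjusted p under 0.05, COL1A1, COL1A2, COL3A1 and COL5A2 passed upward, 4 of the 6, where 5.31% of all genes did, and DESeq2 called 0. COL1A1, COL1A2 and COL3A1 were higher without overlap, where 6.57% of all genes were. The 95% intervals reached from 0.07 to 0.72 for COL1A1 and from -0.07 to 0.58 for CTHRC1, so differences of that size remain possible. The WT ARGFX samples were used to choose the genes, which favours higher values there. The shares over all genes are therefore no measure of the 6. The authors had also left out a mutant ARGFX sample that grouped with WT ARGFX, which bears on this comparison.

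Between LEUTX and mutant ARGFX, 1 of the 6 genes was called down, where 12.1% of all genes were called down, and 0 were called up, where 10.3% were. These samples did not enter the comparison of WT ARGFX with control, but the LEUTX values had set COL15A1 and COL6A3 apart, which lowers the count called down. The gene called was COL3A1, lower without overlap (25.7% of all genes). The others differed by -0.20 (CTHRC1), -0.09 (COL1A1), 0.03 (COL1A2), 0.14 (PXDN) and 0.36 (COL5A2), with edgeR adjusted p-values from 0.105 to 0.887. The widest of their 95% intervals ran from 0.03 to 0.68 for COL5A2, and that for COL1A2 from -0.26 to 0.32.

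Between LEUTX and WT ARGFX, COL3A1 was called down by a difference of -1.62 (SE 0.14, edgeR adjusted p = 1.13e-07), where 11.8% of all genes were called down. COL1A1, at -0.49 (SE 0.15, adjusted p = 0.0169), and CTHRC1, at -0.46 (SE 0.15, adjusted p = 0.0254), passed the p threshold but not the fold threshold. Both were lower with LEUTX without overlap, as was COL3A1 (19.6% of all genes). COL5A2 differed by -0.06, with a 95% interval from -0.36 to 0.24, and PXDN by -0.15, from -0.43 to 0.12. Without LEUTX replicate 2, COL1A1 was also called, at -0.59. Because the WT ARGFX samples were used to choose the genes, lower values with LEUTX are favoured in this comparison. Its shares over all genes are therefore no measure of the chosen genes.

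The order of group means was WT ARGFX, mutant ARGFX, LEUTX, control for COL1A1 and CTHRC1. It was WT ARGFX, LEUTX, mutant ARGFX, control for COL1A2, COL5A2 and PXDN, and WT ARGFX, mutant ARGFX, control, LEUTX for COL3A1. Of the neighbours in these orders, the pairs that differed by the call rule were control and LEUTX for COL3A1, mutant ARGFX and control for COL3A1 and mutant ARGFX and control for PXDN. WT ARGFX stood above control by the choice of the genes, which also favours its first place in every order.

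Replicates of a group deviated together for several of the genes. In the LEUTX group, replicates 3 and 4 were below replicates 1 and 2 for COL1A1, COL1A2, COL3A1, COL5A2 and PXDN, but not for CTHRC1. LEUTX replicate 4 was 0.27 below the group mean for COL1A1, 0.38 below for COL5A2 and 0.38 below for PXDN on the log2 scale. Of the WT ARGFX samples, 1 of the 2 that share a header in the table was lowest for COL1A1, COL3A1, COL5A2 and PXDN and highest for CTHRC1. That sample also had fewest genes detected of its group (15609, against 15988 to 16091) and a surrogate score (the main axis of variation left after the groups) of -0.45, near that of control replicate 2, -0.46. With the surrogate variable in the fit, the LEUTX calls were 2 up and 1 down as before, and mutant ARGFX kept 1 of its 3 calls, CTHRC1.

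**Figure D4:**
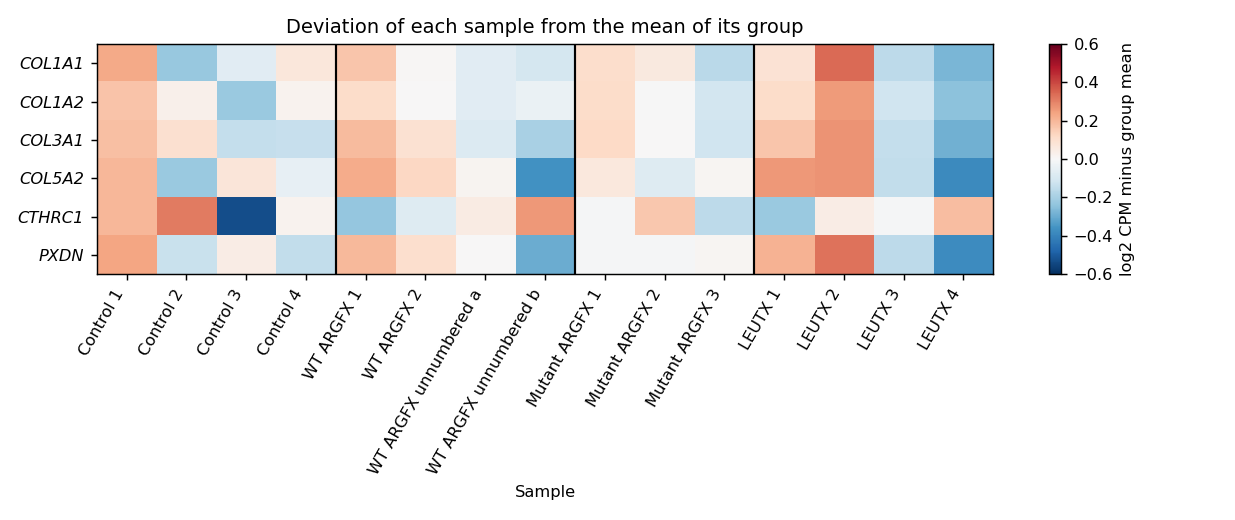
Deviation of each sample from its group mean on the log2 CPM scale, 1 row per gene and 1 column per sample, with black lines between groups; red is above and blue below the mean. LEUTX replicate 4 is below its group mean for 5 genes and above it for CTHRC1.

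Other genes of the collagen pathway were taken from lists, of which only the members with a symbol in the sources used could be located. All of these come from the list of genes upregulated by WT ARGFX, so their values there are not a result. Their counts with LEUTX and mutant ARGFX rest on the same control samples as that choice. The shares over all genes given beside those counts are therefore no measure of the listed genes. Of 7 other fibrillar collagen genes, 2 were located. COL11A1, a type XI chain, rose with LEUTX by 1.81 (SE 0.18, edgeR adjusted p = 3.74e-07) and with mutant ARGFX by 0.87 (SE 0.19, adjusted p = 0.00794). COL5A1, which encodes the other main chain of type V collagen, differed by -0.35 with LEUTX (SE 0.23, adjusted p = 0.238) and by 0.71 with mutant ARGFX (SE 0.25, adjusted p = 0.0776). Its LEUTX samples, at 581 to 1190 CPM, overlapped the control samples, at 751 to 1357 CPM, whereas those of COL5A2 did not.

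Of 38 genes of collagen processing and secretion, 4 were located, and 4 rose with LEUTX (12.8% of all genes). P3H2, a prolyl 3-hydroxylase, rose by 1.70, CREB3L2, a transcription factor of the secretory pathway, by 1.12, SEC24D, a coat protein of vesicles that export procollagen, by 0.77, and PYCR1, an enzyme of proline synthesis, by 0.60. Their edgeR adjusted p-values were at most 0.000794. With mutant ARGFX, 1 of the 4 rose (1.26% of all genes), SEC24D by 0.63 (edgeR adjusted p = 0.00355).

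Of 22 collagen-binding matrix genes, 7 were located, of which 2 rose and 1 fell with LEUTX, where 12.8% of all genes rose and 14.0% fell. FN1 (fibronectin) rose by 1.56 and TGFBI, a secreted adhesion protein, by 0.68, while POSTN (periostin) fell by 0.67. NID2 (nidogen) differed by 0.47 and FBN1 (fibrillin) by -0.36, neither called. With mutant ARGFX, 1 of the 7 rose (1.26% of all genes), FBN1 by 0.60.

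Of 19 genes of collagen receptors and turnover, 6 were located, of which 3 rose and 1 fell with LEUTX, against the same 12.8% and 14.0% of all genes. The metalloproteinases MMP12 and MMP3 rose by 3.99 and 1.41, MRC2, an endocytic collagen receptor, rose by 0.77, and ADAM12 fell by 0.78. MMP28 differed by 0.33 and was not called. With mutant ARGFX, 4 of the 6 rose (1.26% of all genes): ITGA11, a collagen-binding integrin, by 1.17, MRC2 by 0.83, MMP12 by 0.78 and ADAM12 by 0.73.

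Of 12 non-fibrillar collagen genes, 2 were located, COL15A1 and COL6A3, the genes set apart for their fall. With LEUTX they fell by 1.57 and 0.85, and with mutant ARGFX they differed by 0.70 (called) and 0.64 (edgeR adjusted p = 0.0729).

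**Figure D5:**
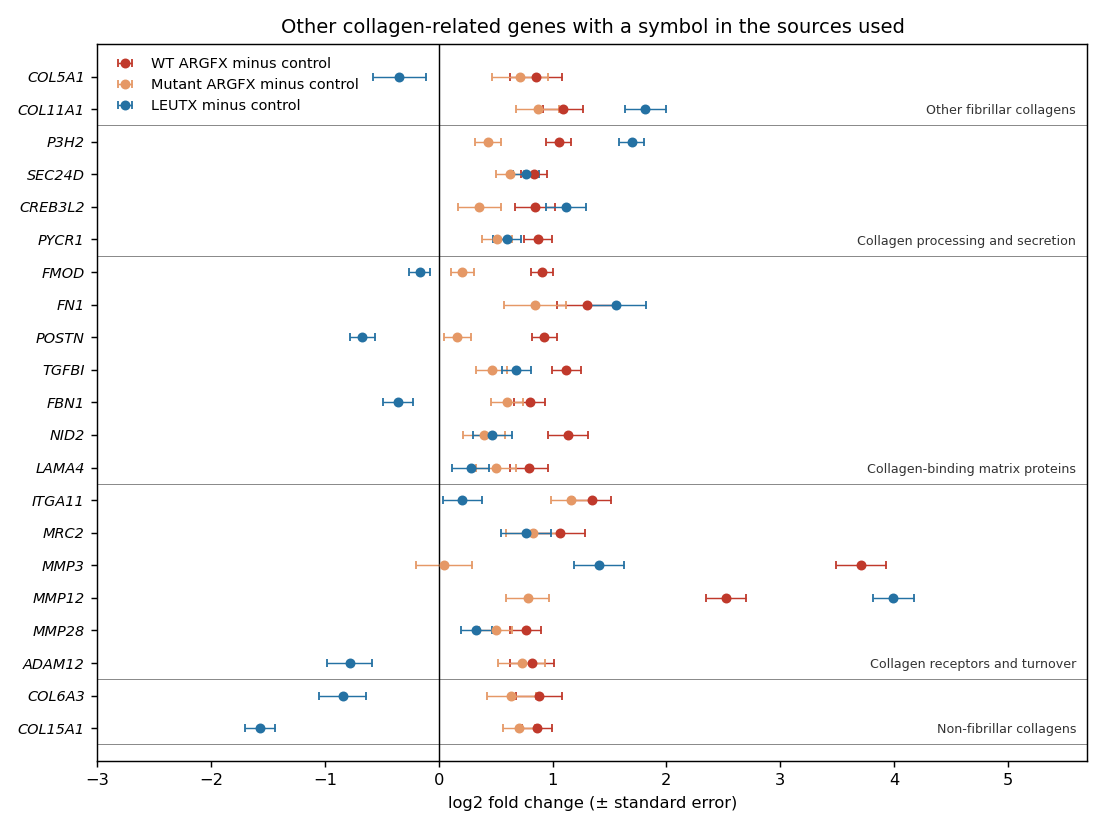
Log2 fold change against control, with 1 standard error, of the 21 other collagen-related genes that could be located, by list, for WT ARGFX (red, positive by choice), mutant ARGFX (orange) and LEUTX (blue). With LEUTX, COL15A1, COL6A3, ADAM12 and POSTN lie to the left of 0 as called genes and MMP12 lies farthest right at 3.99.

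Of 8 smooth muscle and myofibroblast markers, 4 were located (ACTA2, ACTG2, LMOD1 and SMTN). They too come from the list of genes upregulated by WT ARGFX, so their higher level there follows from the choice. Their counts with LEUTX and mutant ARGFX share the control samples of that choice. Their summed level was 757 to 1286 CPM in control samples, 2370 to 3651 CPM with WT ARGFX, 1506 to 1803 CPM with mutant ARGFX and 4753 to 6097 CPM with LEUTX. With LEUTX 4 of the 4 rose (12.8% of all genes), and with mutant ARGFX 2 rose, ACTA2 and LMOD1 (1.26% of all genes). The summed level was highest with LEUTX, where COL3A1 was lowest, and its part in the collagen values was not tested.

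Among 214 other genes with a symbol, those whose 3 log2 fold changes against control were most like the median of the 6 genes (0.85 with WT ARGFX, 0.54 with mutant ARGFX and 0.48 with LEUTX) were C8G, PPM1M, PRKCD, KLHL22 and PRKAG2. Their root mean square differences from that median were 0.03, 0.04, 0.04, 0.05 and 0.05. Of the 6 genes themselves, COL1A2 was closest to the median, at 0.04, and COL3A1 farthest, at 0.64. The likeness rests on 15 samples and on comparisons that share their controls. The symbols come from the list of genes upregulated by WT ARGFX, so a rise with WT ARGFX follows from that choice. By this measure C8G, PPM1M, PRKCD, KLHL22 and PRKAG2 ranked 1, 2, 3, 7 and 8 among the 14264 genes tested. Genes without a symbol were not named, so KLHL22 and PRKAG2 need not be the next genes most like the median.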

How the data were processed

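The authors pseudoaligned paired-end reads with kallisto 0.46.1 to the ARS-UCD1.2 transcriptome and summed the estimates per gene. They left out 1 mutant ARGFX sample because it grouped with WT ARGFX in a principal component plot. That sample was not analysed here. The deposited table holds expected counts for 21665 genes in 15 samples, not normalized, of which 93.1% are whole. Pseudoalignment can divide reads between similar transcripts, which for related collagen chains is uncertain. A pair of WT ARGFX columns share a header and were used without a replicate number.

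Expected counts were rounded and fitted with edgeR 4.0.16 in R 4.3.3 (filterByExpr, TMM, quasi-likelihood test, all 15 samples in 1 fit, Benjamini-Hochberg adjustment over 14264 genes). Standard errors were derived from the F statistic. The 95% intervals used a normal quantile with these standard errors, so they are somewhat narrower than the test itself would give. For COL5A2 in mutant ARGFX against control the interval ran from 0.02 to 0.66, with an unadjusted edgeR p of 0.0562. The fit was tested on simulated data in which 200 of 14264 genes changed 2-fold between LEUTX and control. It recovered 81.5% of these, with 7 false calls. Smaller changes, and changes in the mutant ARGFX group, were not simulated. Nor were changes in as many genes as were called between LEUTX and control (26.8% of all genes). The simulated recovery and false calls need not carry over to that setting. Alternatives were DESeq2 1.42.0, its size factors, library totals alone, no filter, mean CPM above 5, only the groups compared, a replicate block, a surrogate variable (sva 3.50.0) and each sample left out.

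The 6 genes and the lists were chosen with earlier results of these data known. Named were the 6 genes, the transfected genes, all markers located and the 5 genes of most similar pattern among those with a symbol. From each list, up to 5 genes with the largest absolute fold change for LEUTX were also named. ITGA11 was named after its values were seen. Symbols came from the study's list of genes upregulated by WT ARGFX, which located 220 genes. No genome sequence was used.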

Additional observations from a re-analysis of the deposited data

Results flagged for a closer look

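In 29 groups of 4 samples, 2 samples lay apart from the others by Dixon's criterion, which flags about 5% of groups by chance. ARGFX in WT ARGFX replicate 1 was at 4506 CPM, while the other WT ARGFX samples lay between 3039 and 3175 CPM. That replicate was also the highest of its group for COL1A1, COL1A2, COL3A1, COL5A2 and PXDN and the lowest for CTHRC1. The log2 count ratio of COL1A1 to COL1A2 in LEUTX replicate 2 was -0.11, while the other LEUTX samples lay between -0.23 and -0.22. The level of the transfected gene was not tested for a part in the collagen values.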

How the results depend on the processing

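No fold change of the 6 genes that was called changed sign under any of 23 alternatives. The calls of mutant ARGFX against control depended most on the processing. The replicate numbers of the titles did not pair the samples (mean correlation of same-numbered samples -0.02, from -0.38 to 0.55 over 16 pairs, with 3 of 13 numbered samples closest to their own number). The fit with the replicate block on these 13 samples called 1 of the 6 genes, CTHRC1, and the same samples without the block 3. The surrogate variable also left 1. Leaving out 1 sample gave 0 to 3 genes for mutant ARGFX against control, 2 to 3 for LEUTX against control and 1 to 2 for LEUTX against WT ARGFX. PXDN with mutant ARGFX lost its call in 17 alternatives, ranging from 0.47 to 0.67 about a value at the fold threshold, COL3A1 in 5 and CTHRC1 in 4. COL3A1 kept its calls between LEUTX and mutant ARGFX (-1.30 to -1.12) and between LEUTX and WT ARGFX (-1.73 to -1.51) under all 23. The log2 ratio of COL1A1 to COL1A2 in LEUTX against control ranged from -0.29 (without control replicate 2, where it passed an unadjusted threshold) to -0.15 with 1 sample left out. With a mean CPM above 5 required, fewer genes could be called: 1175 in place of 1855 for WT ARGFX against control, 2399 in place of 3817 for LEUTX against control, 2028 in place of 3198 for LEUTX against mutant ARGFX and 1917 in place of 3087 for LEUTX against WT ARGFX. With 3 or 4 samples a group from 1 fetus, differences under the intervals given could not be shown.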
